A study of Mus musculus with 30 samples.

Results

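The collagen chain genes are the 44 of 20321 genes in the deposited tables whose symbol gives a collagen type and an alpha chain number, from Col1a1 to Col28a1. They were followed in RNA from the regenerating tip of the third hindlimb digit (the distal phalanx, P3) of adult male C57Bl/6 mice aged 9 to 10 weeks, after removal of at most 33% of the phalanx. The mice carried no named allele and received no named treatment besides surgery. There were 6 mice at 7 d and 3 mice at every other time (0, 3, 6, 12 and 24 h, then 3, 14 and 21 d), so that each library is 1 mouse and 1 time. The 0 h mice, collected at the time of amputation, served as the reference. Each library holds the whole tissue of the digit tip, and in such bulk RNA fewer cells of a type and less RNA per cell cannot be told apart.

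Collagens are the main structural proteins of connective tissue, and each molecule is a trimer of alpha chains wound into a helix. Fibrillar chains build the tensile fibrils of dermis, tendon and bone. Cartilage has fibrils of its own, made with types II, IX and XI, and basement membranes rest on networks of type IV with types XV and XVIII. In the digit tip, bone grows back after distal amputation through a blastema of connective tissue and bone cells under a healed epidermis, and the new bone matrix is mostly type I collagen.

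By their place in these structures, 8 of the 44 genes were grouped as fibrillar, 7 as cartilage, 8 as basement membrane, 5 as epithelial anchor and transmembrane, 6 as beaded filament (type VI), 6 as fibril-associated and 4 as short-chain and other chains. Levels are given as TPM (transcript abundance scaled to the same total in each library), which corrects for gene length and can be set side by side between genes. Differences between times are log2 fold changes with their standard error (SE) from edgeR's quasi-likelihood test on the expected counts, with Benjamini-Hochberg adjustment over 13793 genes and an adjusted p under 0.05 taken as a call. Of the 44 chains, 38 had enough counts to be tested. The other 6 (Col4a4, Col6a4, Col6a5, Col6a6, Col19a1 and Col26a1) never exceeded 0.83 TPM in a mouse and had a count in 4 to 19 of the 30 mice.

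The sum of expected counts in a mouse was 3167625 to 16277816. By the dates in their titles, 16 mice are dated July to August and 14 November to January, here called the earlier and the later campaign, and their median totals were 5083528 and 9836324. The 3 h and 12 h mice all belong to the earlier campaign and the 21 d mice to the later one. Of the 0 h mice 1 belongs to the earlier and 2 to the later campaign, as do those of 14 d, while of the 3 d mice 2 are earlier and 1 later and of the 7 d mice 2 are earlier and 4 later. The differences within a campaign given for 3 d, 7 d, 14 d and 21 d rest on these mice and are values with no test. At 7 d, 3 of 6 mice are labelled left foot. Basal keratinocyte markers were high throughout, with a sum over 8 genes of 8689 to 13117 TPM in every mouse, and 11 osteoblast and osteocyte markers summed to 265 to 3923 TPM.

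As a share of all TPM, the collagen chains made up 0.346%, 0.365% and 0.585% in the 0 h mice and were lowest in a 24 h mouse, at 0.166%. Over the 15 mice from 0 h to 24 h the highest share was 0.619%, at 12 h. The share was 0.380% to 0.921% at 3 d, 0.640% to 1.23% at 7 d, 1.85% to 2.108% at 14 d and 1.69% to 2.73% at 21 d, so that no 14 d or 21 d mouse overlapped with any earlier mouse. The means were 0.432% ± 0.133 (SD, n = 3) at 0 h and 2.20% ± 0.521 (SD, n = 3) at 21 d. Col1a1, Col1a2 and Col3a1 together made 54.7% to 64.6% of collagen TPM at 0 h, 45.9% to 49.2% at 6 h and 79.4% to 80.9% at 14 d.

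**Figure D1:**
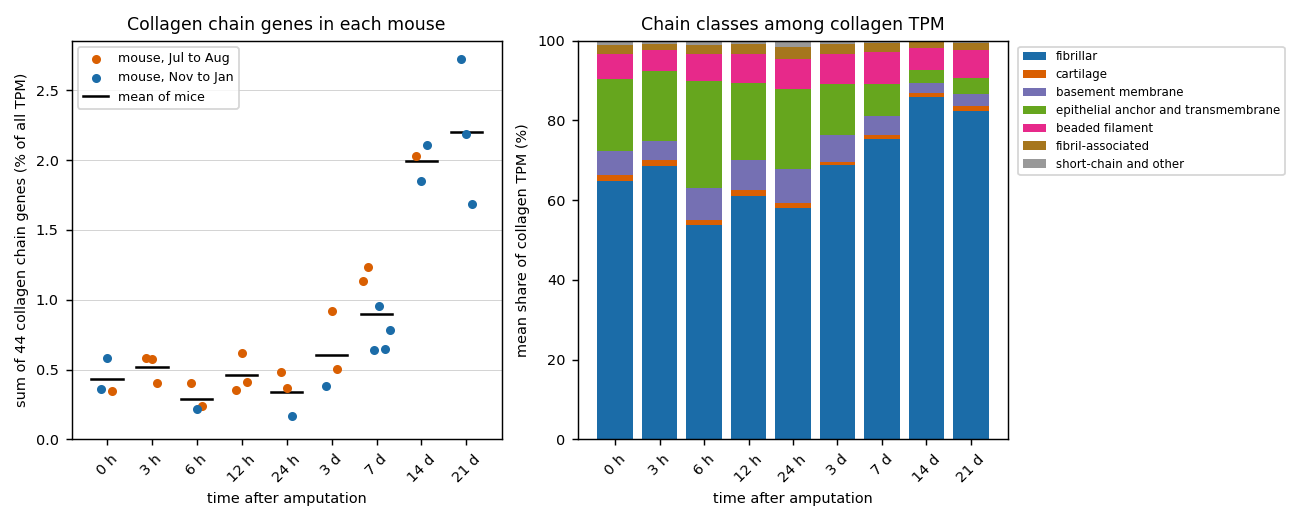
Left, the sum of the 44 collagen chain genes as a percentage of all TPM (y axis, linear) in each mouse (points, coloured by campaign) at each time after amputation (x axis), with black lines at the mean. The 14 d and 21 d mice lie between 1.69% and 2.73%, above every earlier mouse. Right, the mean share of collagen TPM held by each chain class at each time (stacked bars that sum to 100%), in which the fibrillar share goes from 64.8% at 0 h through 53.7% at 6 h to 85.8% at 14 d.

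Over the whole time course, 27 of the 38 tested chains changed (edgeR's F-test over 9 times), where 9.01% of all genes tested did. By class these were 8 of 8 fibrillar, 5 of 7 cartilage, 4 of 7 basement membrane, 2 of 5 epithelial and transmembrane, 3 of 3 beaded filament, 3 of 5 fibril-associated and 2 of 3 short-chain and other chains. Col9a1, which passed the low-count filter through its 14 d and 21 d mice, is among them, and without it the counts are 26 of 37 in all and 4 of 6 for cartilage. The 11 chains without a call were Col4a3, Col4a5, Col4a6, Col9a3, Col10a1, Col13a1, Col14a1, Col17a1, Col20a1, Col25a1 and Col28a1. Mean TPM was highest at 21 d in 21 of the 38 chains and lowest at 6 h in 21. With TMM-normalized CPM in place of TPM these numbers were 25 and 22. These counts describe the chains alone, with no share of all genes beside them.

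In the first day no chain was called against 0 h. At 3 h edgeR called 0 of 38 (0.254% of all genes were called, in either direction), with 2 at an unadjusted p under 0.05 and 0 by DESeq2. At 6 h it called 0 (background 0.189%), with 15 at an unadjusted p under 0.05 and 1, Col5a3, by DESeq2. The 6 h values were low across the chains: the median log2 fold change of the 38 was -0.71, against -0.01 over all genes tested, and 31 of 38 were negative. At 12 h edgeR called 0 (background 0.167%), with 2 at an unadjusted p under 0.05 and 0 by DESeq2, and at 24 h it called 0 (background 0.493%), with 10 at an unadjusted p under 0.05 and 1, Col11a2, by DESeq2. Of all 13793 genes DESeq2 called 148, 93, 66 and 139 at 3 h, 6 h, 12 h and 24 h. The counts at an unadjusted p have no share of all genes beside them.

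At 3 d 1 chain was higher than at 0 h and 1 was lower, beside 0.486% and 0.0653% of all genes. The higher one was Col12a1, which codes for type XII, a collagen that sits on the surface of fibrils. It stood at 12.3, 10.8 and 12.8 TPM in the 0 h mice and at 22.9, 57.6 and 28.5 TPM at 3 d, a log2 fold change of 1.51 (SE 0.36, adjusted p = 0.048). The lower one was Col11a2, at 14.1, 38.6 and 16.3 TPM and then 5.15, 7.64 and 5.45 TPM, with -2.04 (SE 0.41, adjusted p = 0.0129). Both calls were lost without 0 h replicate 2, without 3 d replicate 3 and in a fit of the 6 mice of these times alone (0 calls each). The Col11a2 call was also lost without 3 d replicate 1. The Col12a1 call was also lost without 0 h replicate 1 or 3, 3 h replicate 1, 12 h replicate 1 or 3, 24 h replicate 2, 3 d replicate 2, 7 d replicates 3 to 6, 14 d replicate 3 or 21 d replicate 2, in 15 of 30 fits in all. With campaign as a covariate its adjusted p was 0.0561, and without the left-foot mice it was 0.0581. Within the campaigns the difference of mean log2(CPM + 1) was 1.60 and 0.93 for Col12a1 and -1.34 and -2.16 for Col11a2 (earlier campaign, 2 mice against 1, and later campaign, 1 against 2).

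At 7 d 11 of the 38 chains were called against 0 h and each was higher, where 1.68% of all genes were higher. They were Col1a1, Col3a1, Col5a1, Col5a2, Col27a1, Col4a1, Col4a2, Col6a1, Col6a2, Col6a3 and Col12a1, with log2 fold changes from 1.06 to 2.19. In 14 of the 38 chains every 7 d mouse was above every 0 h mouse, as in 3.92% of all genes. The median log2 fold change was 0.62 over the 38 chains and -0.01 over all genes. The 11 calls fell to 3 (Col4a1, Col6a3 and Col12a1) when either 0 h replicate 1 or 0 h replicate 3 was left out, with 7 d still the higher side for each chain. Calls over all genes, in either direction, fell as well, from 323 to 107 and 143 in these fits. Within the campaigns, the 7 d differences of the 11 chains in mean log2(CPM + 1) were 1.45 to 2.81 in the earlier one, with 2 mice against 1, and 0.84 to 1.85 in the later one, with 4 against 2.

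At 14 d 13 chains were higher than at 0 h, where 1.48% of all genes were: the 7 d chains without Col27a1, and Col1a2, Col11a1 and Col11a2. Log2 fold changes ran from 1.33 to 3.25, and the median of the 38 chains was 0.89 against -0.004 over all genes. In 22 chains all 14 d mice were above all 0 h mice, as in 13.6% of all genes. Within the campaigns the differences of the 13 in mean log2(CPM + 1) were 1.85 to 4.09 in the earlier one, with 1 mouse against 1, and 1.13 to 3.00 in the later one, with 2 against 2. At 21 d 19 chains were higher (1.73% of all genes), with log2 fold changes from 1.09 to 3.97 and a median of the 38 of 1.68 against -0.004 over all genes. They were 12 of the 13 chains of 14 d, without Col11a2, and Col2a1, Col5a3, Col8a1, Col8a2, Col16a1, Col23a1 and Col27a1. All 21 d mice were above all 0 h mice in 25 chains, as in 12.5% of all genes. Within the later campaign, with 3 mice at 21 d and 2 at 0 h, the 19 were higher by 0.95 to 3.53. The count at 21 d was 15 without 21 d replicate 1 (Col2a1, Col5a3, Col8a2 and Col23a1 lost), and Col4a2 at 14 d lost its call without 0 h replicate 1 or 3.

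**Figure D2:**
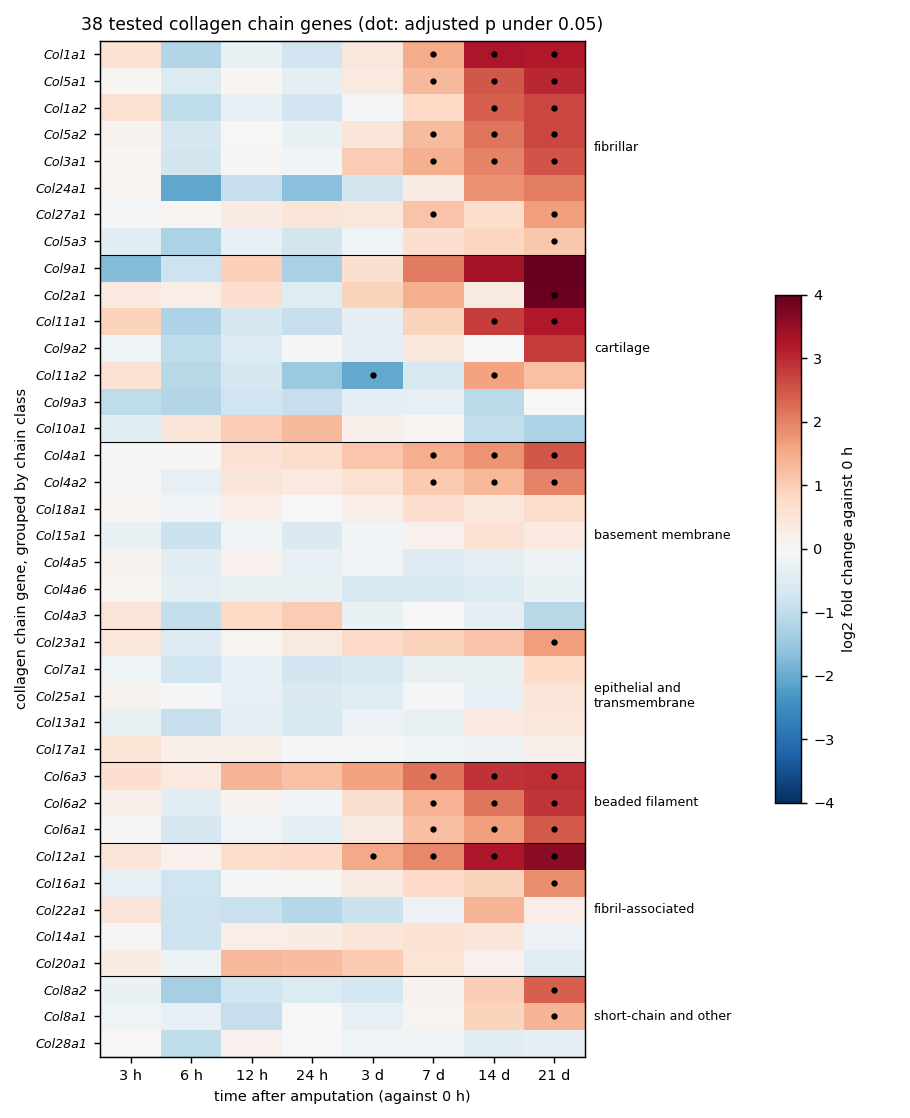
Log2 fold change against 0 h (colour, red higher and blue lower, scale from -4 to 4) of the 38 tested collagen chain genes (rows, grouped by class) at 8 times after amputation (columns), with a black dot where the adjusted p was under 0.05. Most cells of the 6 h column are blue with no dot, and the dots lie mainly at 7 d, 14 d and 21 d, with 11, 13 and 19 of them.

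Type I collagen, the fibril of bone and dermis, is built from the products of Col1a1 (ENSMUSG00000001506, chr11:94936224-94953042 in GRCm38) and Col1a2 (ENSMUSG00000029661, chr6:4504814-4541544). Col1a1 stood at 539, 1002 and 420.3 TPM at 0 h and at 1036, 1062 and 668 TPM at 3 h. It was 396, 270.1 and 232 TPM at 6 h, 480.1, 848 and 481 TPM at 12 h and 587, 420.4 and 158 TPM at 24 h. All 6 h mice lay below all 0 h mice, a log2 fold change of -1.17 (SE 0.37, adjusted p = 0.32) that did not pass the test. Later it was 605, 1611 and 694 TPM at 3 d, 1202 to 2715 TPM (median 1911) at 7 d, 6788, 6079 and 6505 TPM at 14 d and 6626, 5963 and 4296 TPM at 21 d. The log2 fold change against 0 h was 1.496 (SE 0.34, adjusted p = 0.0133) at 7 d, 3.25 (SE 0.40, adjusted p = 1.23e-05) at 14 d and 3.20 (SE 0.40, adjusted p = 1.02e-05) at 21 d. The 14 d and 21 d mice did not overlap with any earlier mouse, and the lowest of them stood at 4296 TPM against 2715 TPM in the highest 7 d mouse.

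Col1a2 was the more abundant partner in TPM in every mouse up to 24 h, and in every mouse at 21 d. Its log2 fold changes at 7 d, 14 d and 21 d were smaller than those of Col1a1, a difference between the chains that was not tested. It stood at 913, 1708 and 789 TPM at 0 h, 823, 466 and 472 TPM at 6 h and 533, 2128 and 909 TPM at 3 d, and at 7 d it was 1219 to 3189.5 TPM (median 1919). Only 3 of 6 mice at 7 d were above all 0 h mice in CPM, and the log2 fold change of 0.80 (SE 0.35, adjusted p = 0.295) did not pass the test. At 14 d it was 6151, 5999.9 and 6571 TPM and at 21 d 8343, 6618 and 5416 TPM, with log2 fold changes of 2.40 (SE 0.41, adjusted p = 0.00083) and 2.67 (SE 0.41, adjusted p = 0.000221). In the same libraries 11 osteoblast and osteocyte markers summed to 382 to 617 TPM at 0 h and 2346 to 3779 TPM at 14 d, and their part in these values was not tested.

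Type III, which is made from Col3a1 alone and accompanies type I in skin and in young repair tissue, stood above Col1a1 in every mouse at 0 h, from 6 h to 3 d and at 7 d, and below it in every mouse at 14 d and 21 d. Col3a1 stood at 650.1, 1068 and 685 TPM at 0 h, 1017, 2734 and 1494 TPM at 3 d, 1536 to 2949 TPM (median 2159) at 7 d, 3143, 2868 and 3842 TPM at 14 d and 5678, 4187 and 2930.1 TPM at 21 d. Its log2 fold change was 1.02 (SE 0.35, adjusted p = 0.364) at 3 d, 1.42 (SE 0.32, adjusted p = 0.0126) at 7 d and 2.52 (SE 0.37, adjusted p = 9.26e-05) at 21 d. In TPM the ratio of Col3a1 to Col1a1 was 1.067 to 1.63 at 0 h, 0.725 to 1.04 at 3 h, 1.29 to 1.88 at 6 h, 1.51 to 1.62 at 12 h, 1.88 to 2.05 at 24 h, 1.68 to 2.15 at 3 d and 1.03 to 1.56 at 7 d. It was 0.463 to 0.591 at 14 d and 0.682 to 0.857 at 21 d, so that at 14 d Col1a1 was about as far above Col3a1 as it had been below it at 24 h. The ratios were picked after their values were seen and carry no test.

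Type V chains, which set fibril diameter from within type I fibrils, were higher late as well. Col5a1 was 55.8, 79.5 and 49.3 TPM at 0 h, 101 to 202 TPM (median 155) at 7 d, 335, 334 and 400.1 TPM at 14 d and 606, 473 and 324 TPM at 21 d, with a log2 fold change of 3.03 (SE 0.35, adjusted p = 4.43e-06) at 21 d. Col5a2, which lies beside Col3a1 on chromosome 1 with 24614 bases between the genes, was 117, 209 and 133 TPM at 0 h and 786, 534 and 748 TPM at 14 d. At 21 d it was 1141, 853 and 714 TPM, with 2.67 (SE 0.32, adjusted p = 8.24e-06). Both chains were also called at 7 d and 14 d. Col5a3, the third type V chain, was 21.9, 39.1 and 23.3 TPM at 0 h and 18.7, 9.03 and 8.50 TPM at 6 h, with all 6 h mice below all 0 h mice and a log2 fold change of -1.27 (SE 0.29, adjusted p = 0.0679). At 21 d it was 70.1, 55.8 and 41.4 TPM, and its log2 fold change of 1.09 (SE 0.28, adjusted p = 0.0378) lost its call without 0 h replicate 1 or 3, 3 d replicate 2 or 3, 14 d replicate 3 or 21 d replicate 1 or 2.

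Both minor fibrillar chains stayed low. Col24a1, known from bone, was 2.66, 6.00 and 3.06 TPM at 0 h, 0.670, 1.67 and 0.130 TPM at 6 h, 15.6, 12.1 and 15.1 TPM at 14 d and 17.0, 13.8 and 15 TPM at 21 d. It changed over the time course (adjusted p = 0.000382), while its log2 fold changes of 1.82 (SE 0.68, adjusted p = 0.28) at 14 d and 2.06 (SE 0.68, adjusted p = 0.166) at 21 d did not pass the test although all 3 mice at each time were above all 0 h mice. Fits of just the mice of the times compared called Col24a1 at 14 d and 21 d. Col27a1, known from cartilage, was 6.93, 10.3 and 5.51 TPM at 0 h, 13.8 to 23.6 TPM (median 16.0) at 7 d, 8.61, 12.2 and 17.6 TPM at 14 d and 28.8, 22.1 and 17.2 TPM at 21 d. It was called at 7 d, with 1.15 (SE 0.28, adjusted p = 0.0203), and at 21 d, with 1.68 (SE 0.31, adjusted p = 0.00191), and at 14 d it did not pass, with 0.70 (SE 0.31, adjusted p = 0.448).

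**Figure D3:**
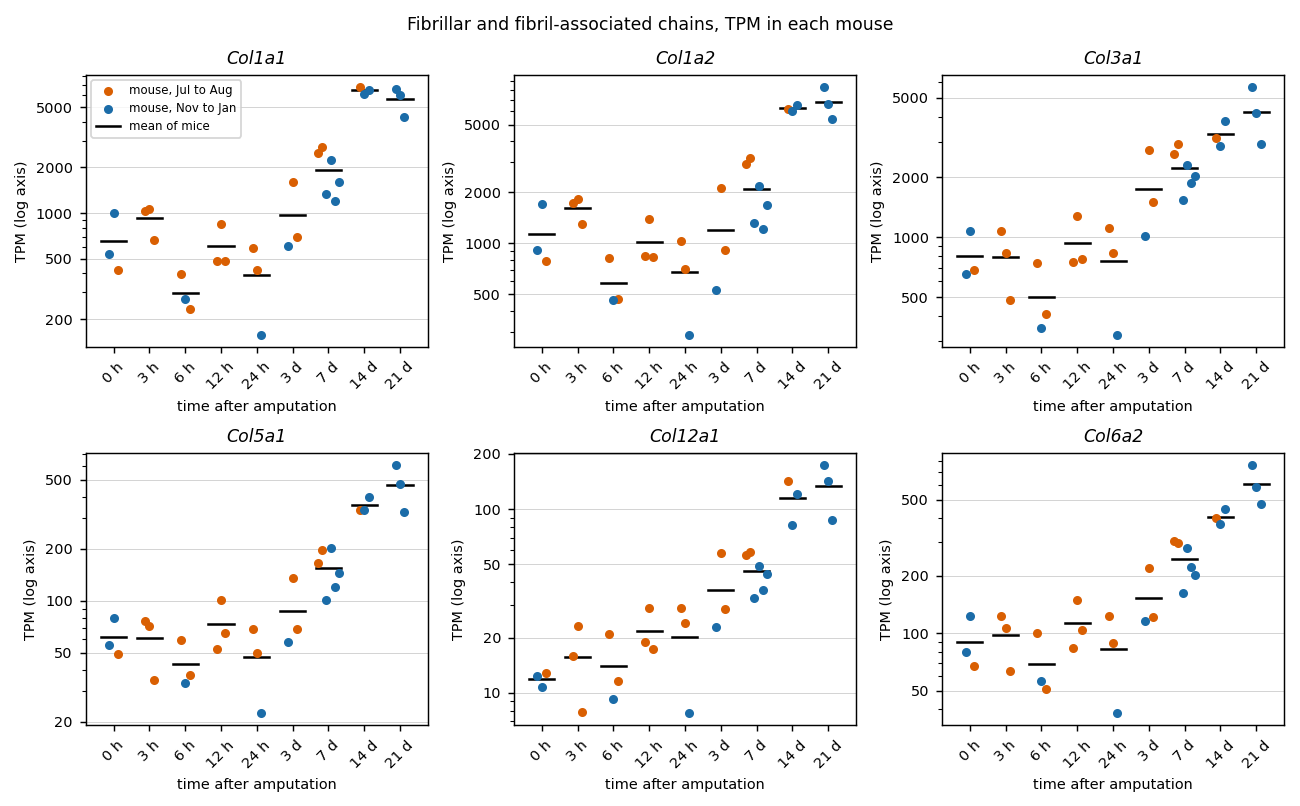
TPM (y axis, log scale) of Col1a1, Col1a2, Col3a1, Col5a1, Col12a1 and Col6a2 in each of 30 mice (points, coloured by campaign) by time after amputation (x axis), with black lines at the mean of the mice. In each panel the 14 d and 21 d mice stand above the 0 h mice, for Col1a1 between 4296 and 6788 TPM against 420.3 to 1002 TPM.

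A type I molecule normally holds more alpha 1 than alpha 2 chains, so the ratio of the messages was followed in each mouse. In all 15 mice from 0 h to 24 h, Col1a1 stood at 0.482 to 0.607 times the TPM of Col1a2 (median 0.579). In the 15 mice from 3 d to 21 d the ratio was 0.757 to 1.14 (median 0.951), with no overlap. The same step appeared within each campaign: 0.482 to 0.607 in 11 mice against 0.757 to 1.104 in 5 mice of the earlier one, and 0.546 to 0.590 in 4 mice against 0.793 to 1.14 in 10 mice of the later one. In expected counts the ranges were 0.534 to 0.673 and 0.840 to 1.26. By time the mean ratio was 0.570 ± 0.0319 (SD, n = 3) at 0 h, 0.946 ± 0.0789 (SD, n = 6) at 7 d, 1.04 ± 0.0600 (SD, n = 3) at 14 d and 0.829 ± 0.0620 (SD, n = 3) at 21 d. The split between 24 h and 3 d was chosen after these values were seen, and they are given as a description with no test.

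Of the other partner pairs followed, Col11a1 and Col11a2 also had a higher ratio later, from 0.570 to 1.28 (median 0.868) over the first 15 mice to 1.199 to 4.58 (median 2.08) over the later 15, with a narrow overlap. The ratio of Col4a1 to Col4a2 was 0.749 to 1.503 (median 1.18) and then 1.079 to 1.60 (median 1.46), which overlap broadly. Col5a1 to Col5a2 was 0.278 to 0.478 and 0.317 to 0.6252, and Col6a1 to Col6a2 was 1.24 to 1.70 and 1.0797 to 1.99. Col4a5 to Col4a6 was 0.932 to 1.94 and 0.754 to 1.81, Col6a3 to Col6a1 was 0.144 to 0.652 and 0.204 to 0.658, and Col8a1 to Col8a2 was 1.39 to 19.3 and 0.778 to 4.04, all with overlap. Col9a2 to Col9a3, both low, was 0.0824 to 0.977 (median 0.553) and then, in the 14 mice with a value, 0.175 to 4.22 (median 0.811). All pairs were measured in the same 30 libraries.

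**Figure D4:**
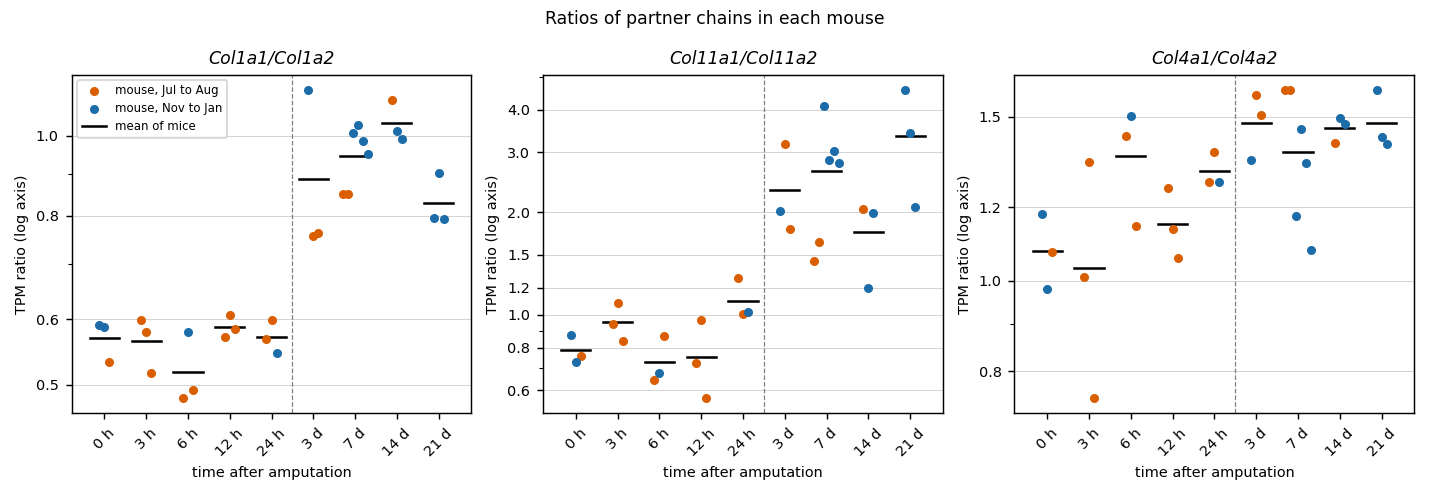
Ratio of TPM (y axis, log scale) of Col1a1 to Col1a2, Col11a1 to Col11a2 and Col4a1 to Col4a2 in each mouse (points, coloured by campaign) by time after amputation, with black lines at the mean and a dashed line between 24 h and 3 d. For Col1a1 to Col1a2 the mice left of the line span 0.482 to 0.607 and those right of it 0.757 to 1.14.

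Of the 7 cartilage chains, Col11a1 and Col11a2 were higher at 14 d, Col11a1 and Col2a1 at 21 d, and no other was called against 0 h except Col11a2 at 3 d. Col11a1, an initiator of thin fibrils in cartilage and also made in bone, was 12.3, 28.0 and 12.4 TPM at 0 h and 29.4, 29.8 and 30.8 TPM at 3 h. It was 7.89, 8.45 and 6.31 TPM at 6 h, 19.1 to 43.95 TPM (median 38.3) at 7 d, 133, 102 and 138 TPM at 14 d and 175, 148 and 133 TPM at 21 d. Its log2 fold change was 2.77 (SE 0.36, adjusted p = 3.71e-05) at 14 d and 3.20 (SE 0.37, adjusted p = 4.3e-06) at 21 d, and no 14 d or 21 d mouse overlapped with an earlier mouse. Col11a2 was 6.28 to 28.6 TPM (median 14.0) at 7 d, 65.0, 85.0 and 68.9 TPM at 14 d and 38.2, 43.1 and 64.2 TPM at 21 d. Against 0 h it was called at 14 d, with 1.61 (SE 0.39, adjusted p = 0.0267), a call lost without 0 h replicate 1 or 3 or any 14 d mouse, and at 21 d it did not pass, with 1.16 (SE 0.39, adjusted p = 0.172).

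Col2a1 codes for the main fibril of cartilage. It was 1.46, 4.5 and 2.51 TPM at 0 h, 3.08 to 18.4 TPM (median 5.15) at 7 d and 5.31, 2.66 and 3.09 TPM at 14 d. At 21 d it was 79.7, 30.9 and 11.2 TPM, a log2 fold change of 3.97 (SE 0.80, adjusted p = 0.00425) over 0 h. The 21 d mice were above every 0 h mouse, but the lowest of them lay below the highest 7 d mouse, and without 21 d replicate 1 the log2 fold change was 2.95 with an adjusted p of 0.0878. The call was also lost without 0 h replicate 1. Of the type IX chains, which decorate type II fibrils, Col9a2 was 2.33, 4.40 and 0.490 TPM at 0 h and 29.6, 9.71 and 9.05 TPM at 21 d, with 2.81 (SE 0.79, adjusted p = 0.0654). Col9a2 was called at 21 d by DESeq2, with campaign as a covariate, without the left-foot mice and in a fit of just the mice compared. Its call over the time course (adjusted p = 0.00451) was lost without 21 d replicate 1 (adjusted p = 0.253). It was highest in the same mouse as Col2a1 at 7 d and at 21 d.

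Col9a1 was at most 0.22 TPM at 0 h and was 3.05, 1.35 and 1.13 TPM at 14 d and 3.95, 2.74 and 1.13 TPM at 21 d. It changed over the time course (adjusted p = 0.00773) but passed in no comparison of 2 times in edgeR's fit over all 30 mice. DESeq2 called it at 21 d, and fits of just the mice of the times compared called it at 14 d and 21 d. It was at 0 in 9 of 30 mice, with 0 to 7 counts in each mouse up to 24 h and 19 to 86 counts at 14 d and 21 d, and its late mice carried it past the low-count filter. Col9a3 was 5.08, 7.95 and 5.95 TPM at 0 h and 7.01, 7.83 and 2.81 TPM at 21 d, with no call over the time course (adjusted p = 0.689). Col10a1, the marker chain of hypertrophic cartilage, was highest on average at 24 h, with 35.7, 22.9 and 15.3 TPM against 9.82, 10.2 and 10.7 TPM at 0 h, and lowest at 21 d, with 1.35, 0.210 and 10.8 TPM. Its time course did not pass the test (adjusted p = 0.359), and its mice spread widely at 6 h, 7 d, 14 d and 21 d. Of the other cartilage genes, 8 markers summed to 198 to 239 TPM at 0 h and 201 to 252 TPM at 21 d. Of the 6 that were tested 2 were higher at 14 d and at 21 d (1.48% and 1.73% of all genes), Acan and Matn3. Acan, the cartilage proteoglycan core, rose at 21 d from a mean of 9.40 to 58.2 TPM, with 2.74 (SE 0.43, adjusted p = 0.00023), while Matn3, a cartilage matrilin, was at 0 in every 0 h mouse and had a mean of 3.98 TPM at 21 d. Matn3 was also at 0 in every mouse at 3 h, 12 h and 24 h. It may have passed the low-count filter through its later mice alone, which was not checked, so its calls add no support. Matn1 was at 0 in every mouse at 0 h and 21 d. The part of chondrocyte number in these values was not tested.

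The windows before the start sites of 4 of these genes are printed because all were higher at 14 d than at 0 h and their promoters can be set side by side. They are the 150 bases before the RefSeq start in GRCm38.p6, read 5′ to 3′ on the plus strand, for Col3a1 (chr1:45311388-45311537), Col5a1 (chr2:27886275-27886424), Col11a1 (chr3:114030390-114030539) and Col11a2 (chr17:34038988-34039137). None of these bases lies in an annotated exon, and capitals mark matches to CCAAT on either strand and to TATAAA on the coding strand.
Col3a1: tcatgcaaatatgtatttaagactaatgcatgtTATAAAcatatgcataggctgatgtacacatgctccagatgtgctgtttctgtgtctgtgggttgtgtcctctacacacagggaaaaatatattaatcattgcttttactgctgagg
Col5a1: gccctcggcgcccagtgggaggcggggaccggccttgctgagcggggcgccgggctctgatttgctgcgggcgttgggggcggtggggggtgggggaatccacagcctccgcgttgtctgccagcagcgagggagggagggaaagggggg
Col11a1: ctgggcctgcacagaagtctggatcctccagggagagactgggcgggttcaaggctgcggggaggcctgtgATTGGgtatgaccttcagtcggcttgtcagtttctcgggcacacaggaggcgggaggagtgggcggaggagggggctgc
Col11a2: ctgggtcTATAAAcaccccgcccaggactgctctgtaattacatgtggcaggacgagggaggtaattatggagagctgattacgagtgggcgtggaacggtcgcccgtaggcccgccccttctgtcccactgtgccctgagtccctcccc
Promoters of 35 of the 44 members were in the RefSeq table, the absent ones being Col1a1, Col2a1, Col4a3, Col5a2, Col9a3, Col12a1, Col14a1, Col22a1 and Col26a1. In the 250 bases before the start, CCAAT on either strand was found in 13 of 38 promoters of members (34.2%) and in 33.9% of all 32851 promoters of the table, and in 6 of the 16 promoters of chains that were higher at 21 d (37.5%). TATAAA on the coding strand was found in 5 of 38 (13.2%), in 7.59% of all and in 1 of the 16 promoters of chains higher at 21 d (6.25%). In the printed windows the CCAAT match of Col11a1 begins 79 bases before the start, and the TATAAA matches of Col3a1 and Col11a2 begin 117 and 143 bases before it.

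Of the 7 tested basement membrane chains, the widely made type IV pair was higher at 7 d, 14 d and 21 d and the other 5 were called at no time against 0 h. With campaign as a covariate Col18a1 and Col4a6 were called at 7 d, and Col18a1 also by DESeq2. Their TPM moved in opposite directions. Every 7 d mouse was above the 0 h mice for Col18a1. For Col4a6 the 7 d mice had 8.10 to 27.1 TPM (median 13.2), against 20.6, 21.2 and 27.0 TPM at 0 h. Col4a1 (chr8:11198423-11312826) and Col4a2 (chr8:11312805-11449287) are transcribed away from each other on chromosome 8 and their annotated exons overlap by 22 bases on opposite strands. Col4a1 was 46.6, 61.4 and 40.9 TPM at 0 h, 85.6, 138 and 119.8 TPM at 3 d, 81.0 to 213 TPM (median 139) at 7 d, 184, 171 and 177 TPM at 14 d and 347, 229.6 and 196 TPM at 21 d. All 3 d mice were already above all 0 h mice, and the log2 fold change was 1.097 (SE 0.31, adjusted p = 0.139) at 3 d, 1.46 (SE 0.29, adjusted p = 0.00366) at 7 d and 2.48 (SE 0.32, adjusted p = 1.74e-05) at 21 d. Col4a2 was 39.5, 62.6 and 38 TPM at 0 h, 131, 114 and 119.9 TPM at 14 d and 217, 161 and 139 TPM at 21 d, with 1.98 (SE 0.29, adjusted p = 9.29e-05) at 21 d.

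Col4a5 and Col4a6, the divergent pair on chromosome X that serves basement membranes of epithelium and smooth muscle, showed no call over the time course (adjusted p = 0.138 and 0.155), though Col4a6 was called with campaign as a covariate. Col4a5 was 23.6, 29.2 and 31.2 TPM at 0 h and 22.8, 23.9 and 21.9 TPM at 21 d, and Col4a6 20.6, 21.2 and 27.0 TPM and 14.6, 19.5 and 19.0 TPM. At 21 d the standard error of their log2 fold changes, -0.19 and -0.27, was 0.23 for both. Col4a3 never exceeded 0.77 TPM. Col15a1 and Col18a1, the hybrids of collagen and proteoglycan that release antiangiogenic fragments, changed over the time course (adjusted p = 0.0335 and 0.0244) but at no single time against 0 h. The Col15a1 call was lost without 6 h replicate 2 or 3, 24 h replicate 2 or 3, 14 d replicate 2 or 3 or 21 d replicate 1, and the Col18a1 call without 21 d replicate 1, with campaign as a covariate and without the left-foot mice. Col18a1 was 79.7, 87.0 and 72.8 TPM at 0 h and 107 to 146 TPM (median 126) at 7 d, where all 6 mice were above all 0 h mice and the log2 fold change was 0.66 (SE 0.20, adjusted p = 0.0771). Col15a1 was 32.1, 42.0 and 23.0 TPM at 0 h, 24.1, 15.7 and 15.9 TPM at 6 h and 36.6, 56.7 and 58.5 TPM at 14 d. Endothelial markers, 8 genes, summed to 108 to 141 TPM at 0 h, 144 to 285 TPM at 7 d, 163 to 188 TPM at 14 d and 136 to 143 TPM at 21 d. Of them 1, Cdh5, was higher at 7 d (1.68% of all genes), with 1.54 (SE 0.33, adjusted p = 0.00721). Mural cell markers, also 8, summed to 529.9 to 675 TPM at 0 h, 367 to 646 TPM at 7 d, 507 to 658 TPM at 14 d and 435 to 659 TPM at 21 d. The part of these cells in the values was not tested.

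Of the 5 chains of the epithelial anchor and transmembrane class, Col23a1 was called against 0 h, at 21 d. Col17a1, a transmembrane collagen of hemidesmosomes, was the fourth most abundant chain over all mice (mean 589.9 TPM, after 2343 for Col1a2, 1978 for Col1a1 and 1751 for Col3a1). It was 551, 539.6 and 567 TPM at 0 h, 904, 418 and 641 TPM at 6 h, 542, 485 and 450.2 TPM at 14 d and 692, 559.9 and 507 TPM at 21 d, with no call over the time course (adjusted p = 0.222) and log2 fold changes against 0 h between -0.21 and 0.53. Basal keratinocyte markers, 8 genes, summed to 10598 to 12815 TPM at 0 h and 10326 to 12077 TPM at 21 d. Col7a1, which forms anchoring fibrils under the epidermis, was 124, 205 and 159 TPM at 0 h, 119, 91.0 and 67.0 TPM at 24 h and 315, 246 and 229.7 TPM at 21 d. It changed over the time course (adjusted p = 0.000664), with all 24 h mice below and all 21 d mice above the 0 h mice, but the 21 d difference did not pass, with 0.80 (SE 0.26, adjusted p = 0.15).

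Col23a1, a transmembrane collagen, was 7.99, 6.49 and 7.30 TPM at 0 h and 30.8, 22.3 and 11.5 TPM at 21 d, and rose by 1.68 (SE 0.33, adjusted p = 0.00338). Without 21 d replicate 1 its adjusted p was 0.0804. Col13a1 was 17.3, 32.5 and 10.7 TPM at 0 h and 29.1, 25.2 and 28.9 TPM at 14 d, with no call over the course of time (adjusted p = 0.0636), and Col25a1, found mainly in neurons, stayed at or under 2.95 TPM. The epithelial and transmembrane chains together held 13.4% to 21.6% of collagen TPM at 0 h, 24.2% to 30.0% at 6 h and 2.88% to 3.82% at 14 d, while their summed level was 0.0745% of all TPM at 0 h and 0.0673% at 14 d.

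**Figure D5:**
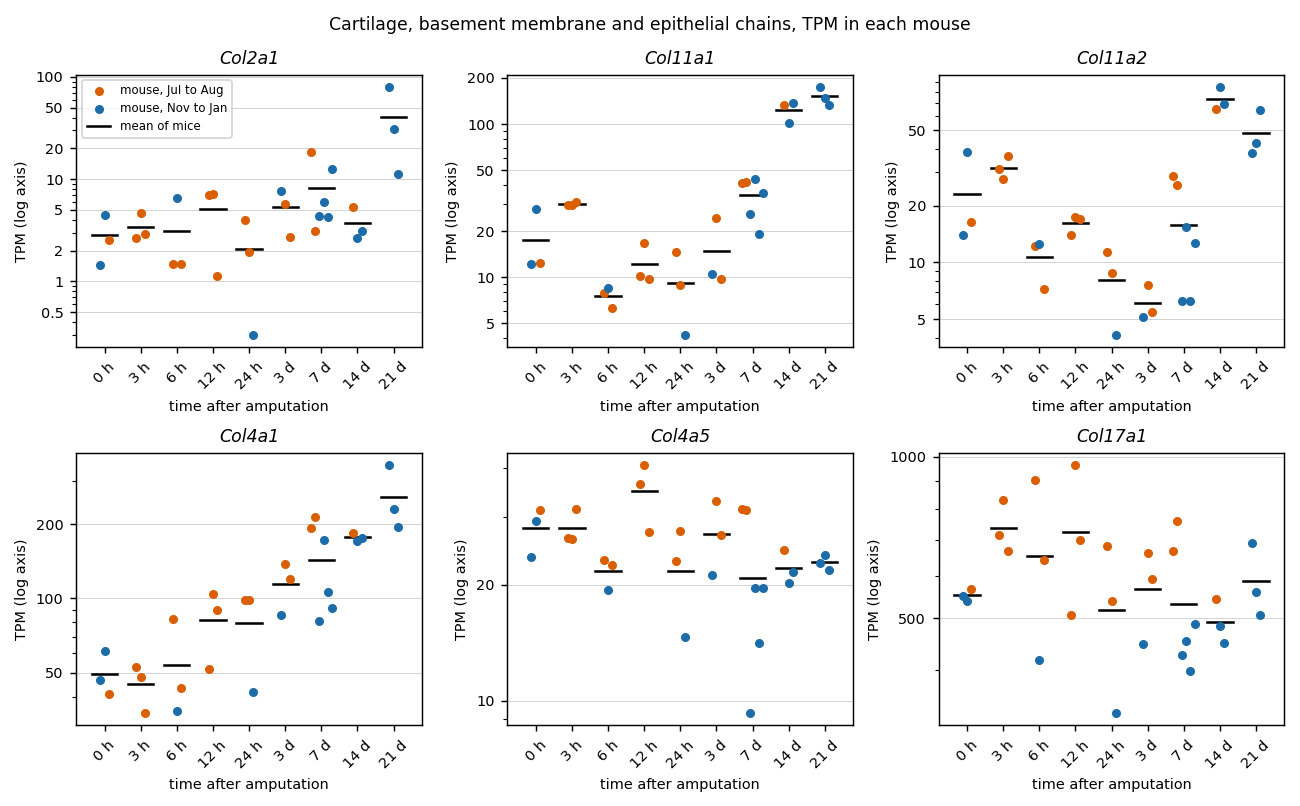
TPM (y axis, log scale) of Col2a1, Col11a1, Col11a2, Col4a1, Col4a5 and Col17a1 in each of 30 mice (points, coloured by campaign) by time after amputation (x axis), with black lines at the mean. Col2a1 at 21 d spans 11.2 to 79.7 TPM, Col11a1 stands at 102 to 175 TPM at 14 d and 21 d, and Col4a5 and Col17a1 keep overlapping with their 0 h mice at 21 d.

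The 3 abundant chains of type VI, which form beaded filaments around cells, were all called at 7 d, 14 d and 21 d. Col6a1 was 118, 208 and 114 TPM at 0 h, 323 to 383 TPM (median 337) at 7 d, 516, 405 and 538 TPM at 14 d and 960.5, 717 and 556 TPM at 21 d, with 2.45 (SE 0.31, adjusted p = 1.36e-05) at 21 d. Its neighbour on chromosome 10, Col6a2, was 79.8, 124 and 67.0 TPM at 0 h, 163 to 303 TPM (median 250.03) at 7 d and 758, 585 and 477 TPM at 21 d, with 2.85 (SE 0.33, adjusted p = 4.3e-06). Col6a3, the long chain that completes the trimer, was above its 0 h range in 2 of 3 mice at 3 h, 1 of 3 at 6 h, all 3 at 12 h and 2 of 3 at 24 h. It was 19.5, 29.8 and 28.4 TPM at 0 h and 51.4, 88.9 and 79.7 TPM at 12 h, where every mouse was above every 0 h mouse and the log2 fold change of 1.36 (SE 0.43, adjusted p = 0.384) did not pass the test. At 24 h it was 85.9, 71.4 and 21.1 TPM. The 12 h mice all belong to the earlier campaign, whose 0 h mouse stood at 28.4 TPM. At 7 d it was 68.4 to 232 TPM (median 79.8), with the earlier campaign at 214 and 232 TPM and the later one at 68.4 to 82.2 TPM, and at 14 d 206, 153 and 223 TPM. The log2 fold change was 2.19 (SE 0.41, adjusted p = 0.00247) at 7 d and 2.88 (SE 0.46, adjusted p = 0.000388) at 14 d. The other type VI chains, Col6a4 to Col6a6, were at most 0.42 TPM.

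Among fibril-associated chains, Col12a1 had the largest log2 fold changes at 7 d, 14 d and 21 d. After 3 d it was 32.9 to 58.6 TPM (median 46.6) at 7 d, 143, 82.4 and 121 TPM at 14 d and 174, 142 and 87.8 TPM at 21 d, with log2 fold changes of 1.92 (SE 0.34, adjusted p = 0.00107), 3.24 (SE 0.38, adjusted p = 6.18e-06) and 3.60 (SE 0.39, adjusted p = 2.2e-06). Col14a1, its close relative in mature dermis, was 3.98, 6.41 and 3.73 TPM at 0 h, 3.28 to 19.1 TPM (median 5.67) at 7 d and 3.19, 3.38 and 4.79 TPM at 21 d, with no call (adjusted p = 0.317). Col16a1 was 69.0, 98.2 and 56.4 TPM at 0 h and 314, 256 and 191 TPM at 21 d, with 1.86 (SE 0.31, adjusted p = 0.000667). Col22a1, a chain of tissue junctions such as that of muscle and tendon, was 3.28, 8.06 and 2.76 TPM at 0 h, 8.70, 15.9 and 13.1 TPM at 14 d and 3.12, 3.44 and 9.50 TPM at 21 d. It changed over the time course (adjusted p = 0.0111), a call lost without 14 d replicate 2, and its 14 d log2 fold change was 1.35 (SE 0.53, adjusted p = 0.34). Col20a1 was at most 4.67 TPM.

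The short chains of type VIII, a network collagen of vessels and of Descemet's membrane, were higher at 21 d. Col8a1 was 22.4, 25.1 and 20.8 TPM at 0 h, 12.6, 18.6 and 8.93 TPM at 12 h, 45.2, 44.1 and 41.9 TPM at 14 d and 52.7, 59.0 and 51.5 TPM at 21 d, with 1.35 (SE 0.27, adjusted p = 0.00391) at 21 d. Col8a2 was 11.2, 12.1 and 9.21 TPM at 0 h, 28.3, 17.8 and 20.3 TPM at 14 d and 67.8, 54.2 and 36.2 TPM at 21 d, with 2.38 (SE 0.54, adjusted p = 0.012), a call lost without any of the 0 h mice or without 21 d replicate 1. Col28a1, known from peripheral nerve, was 13.4, 21.7 and 11.5 TPM at 0 h and 9.78, 8.27 and 15.7 TPM at 21 d, with no call over the time course (adjusted p = 0.247). Schwann cell markers, 8 genes, summed to 175 to 201 TPM at 0 h and 104 to 170.2 TPM at 21 d.

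Between 3 d and 14 d 9 of the 38 chains were called and each rose, where 0.276% of all genes rose. They were Col1a1, Col1a2, Col5a1, Col5a2, Col6a2, Col8a1, Col11a1, Col11a2 and Col12a1. Col11a2 had the largest log2 fold change, 3.64 (SE 0.43, adjusted p = 2.61e-05), followed by Col11a1 with 3.14 (SE 0.37, adjusted p = 2.61e-05) and Col1a1 with 2.79 (SE 0.39, adjusted p = 0.000252). Col3a1, with 0.97 (SE 0.35, adjusted p = 0.559), and Col4a1, with 0.69 (SE 0.31, adjusted p = 0.866), did not pass. Within the campaigns the differences of the 9 were 1.26 to 3.38, with 1 mouse at 14 d and 2 at 3 d, and 1.25 to 3.76, with 2 and 1. The 9 calls became 3 (Col1a1, Col11a1 and Col11a2) without 3 d replicate 3, 5 without 3 d replicate 1, 14 d replicate 1 or 14 d replicate 3, and 4 in a fit of these 6 mice alone. Col8a1, with 1.23 (SE 0.27, adjusted p = 0.0451), lost its call in 17 of 30 fits with a mouse left out, any mouse of 0 h, 3 d or 14 d among them.

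Some genes that fold, modify and cross-link collagen were higher late. Of 29 such genes, all tested, 5 were higher than at 0 h at 7 d, 13 at 14 d and 14 at 21 d, where 1.68%, 1.48% and 1.73% of all genes were, with median log2 fold changes of 0.53, 1.09 and 1.18. Between 3 d and 14 d 3 rose (0.276% of all genes). Fkbp10, a chaperone and isomerase of type I procollagen, went from a mean of 16.1 to 112 TPM at 14 d, a log2 fold change of 2.74 (SE 0.28, adjusted p = 9.05e-07). Lepre1, a prolyl 3-hydroxylase, went from 9.63 to 53.1 TPM, with 2.40 (SE 0.35, adjusted p = 0.00012), and Plod2, which hydroxylates lysines of the telopeptides, from 14.7 to 73.5 TPM, with 2.28 (SE 0.34, adjusted p = 0.000206). P4ha3, a catalytic subunit of prolyl 4-hydroxylase, went from 3.20 to 24.3 TPM at 21 d, with 2.99 (SE 0.45, adjusted p = 0.000147). Loxl2, a cross-linking lysyl oxidase, rose between 3 d and 14 d, with 1.31 (SE 0.29, adjusted p = 0.0404).

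Of 10 collagen receptors 9 were tested, and 2 were higher at 14 d and at 21 d (1.48% and 1.73% of all genes). Itga11, the integrin subunit that binds fibrillar collagen, went from 2.82 to 17.2 TPM at 14 d, with 2.53 (SE 0.52, adjusted p = 0.00595), and Mrc2, the receptor that takes up collagen for breakdown, from 24.2 to 43.3 TPM at 21 d, with 0.94 (SE 0.19, adjusted p = 0.00407). Of 9 small leucine-rich proteoglycans that bind fibrils, 1 was higher at 7 d, 0 at 14 d and 2 at 21 d (1.68%, 1.48% and 1.73% of all genes). The median log2 fold changes of the list were -0.37, 0.77 and 1.14 at these times. Fmod was higher at 7 d, with 1.498 (SE 0.41, adjusted p = 0.0445), and Lum went from 249.6 to 1004 TPM at 21 d, with 2.121 (SE 0.43, adjusted p = 0.00475). These lists were drawn up with earlier results of these data known and are described by their counts alone.

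Markers of other cells moved in the same samples. The 11 osteoblast and osteocyte markers summed to 382 to 617 TPM at 0 h, 1183 to 1727 TPM at 3 d, 2346 to 3779 TPM at 14 d and 3251 to 3923 TPM at 21 d. At 3 d 1 of them was higher than at 0 h and 1 lower (0.486% and 0.0653% of all genes), with a median log2 fold change of 0.28. The higher marker was Spp1, with a mean of 129 TPM at 0 h and 835 TPM at 3 d. At 7 d 2 were higher and 1 lower (1.68% and 0.66% of all genes). At 14 d 4 were higher and at 21 d 5 (1.48% and 1.73% of all genes). Ibsp, bone sialoprotein, went from 143 to 2170.2 TPM at 14 d, with 3.86 (SE 0.53, adjusted p = 6.51e-05). Bglap2, an osteocalcin gene whose near copy Bglap may share its reads, was the lower marker and was listed at 0 in all 3 mice at 3 d. Its log2 fold change was -9.78 (SE 1.45, adjusted p = 0.000466) at 3 d and -3.15 (SE 0.58, adjusted p = 0.00246) at 7 d. It was also lower at 24 h, with -3.99 (SE 0.81, adjusted p = 0.0113), where 0.087% of all genes were lower. The 8 fibroblast markers summed to 1046 to 1318 TPM at 0 h and 985 to 2205 TPM at 21 d. Of these 1 was higher at 7 d, Fbln1, and 1 at 21 d, Lum (1.68% and 1.73% of all genes). The 8 leukocyte markers went from 122 to 174 TPM at 0 h to 495 to 1095 TPM at 7 d, with 4 higher (1.68% of all genes). The part of cell composition in the collagen values was not tested.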

How the data were processed

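RNA was taken from 30 mouse digit tips, made into poly(A) libraries and sequenced as single-end reads. Per the labels and the study's methods, the authors aligned reads with Bowtie 0.12.8 to Ensembl v75 transcripts (mm10) and deposited RSEM 1.2.3 expected counts per gene, of which 78.1% were whole. The authors also deposited TPM per mouse, which RSEM scales by transcript length and library total and which were used for levels. Their table of averaged TPM was not used. The strand setting of the counting is not given in the sources used here.

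Expected counts were rounded, filtered with filterByExpr by time (13793 of 20321 genes kept), TMM-normalized and fitted over all 30 mice with edgeR 4.0.16 in R 4.3.3, using the quasi-likelihood F-test over 9 times and contrasts against 0 h and of 14 d against 3 d, with Benjamini-Hochberg adjustment over all genes tested. DESeq2 1.42.0, no filter, other normalization, a campaign covariate, subsets of mice and leaving out each mouse were tried. 1 animal tag occurs with the same date at 0 h and 12 h, and the methods count 30 separate mice. The 0 h mice are shared by all comparisons with 0 h. On data simulated from these means and library sizes (13614 genes), the 14 d against 0 h contrast recovered 72% of 4-fold and 21% of 2-fold changes. All members are named, by the rule on symbols. The members, chain classes and gene lists were chosen with earlier results of these data known. Totals were 3167625 to 16277816 counts per mouse, and replicate mice differed by more than counting noise (chi-square per degree of freedom 9.83 to 94.7 over 39 pairs), so that the spread between mice bounds the precision. Gene positions are from GENCODE M21 and promoters from RefSeq, both GRCm38. Of the distinct 31-base sequences in a member's transcripts, at most 4.30% (Col6a6) were shared with another member or a tested gene. Genes that were not tested were not searched, apart from the members.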

Additional observations from a re-analysis of the deposited data

Results flagged for a closer look

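At 7 d, the group of 6 mice, 1 mouse stood apart from the others by Dixon's criterion (gap to the next mouse over range) in 7 of the 43 chains examined. A rate of 1 in 20, or 2.15 chains, would hold for independent chains with normally spread values. The chains were measured in the same 6 mice and some are near 0, so 7 cannot be read against 2.15. Col10a1 had a ratio of 0.792, with 7 d replicate 1 at 38.97 TPM and the next mouse at 9.98 TPM. For Col14a1 the ratio was 0.736, with 7 d replicate 2 at 19.06 TPM and the next at 7.44 TPM, and for Col22a1 it was 0.691 in the same mouse, at 11.82 and 4.77 TPM. Col24a1 reached 0.753 in 7 d replicate 3, at 12.22 against 4.07 TPM. The other 3 chains are close to their detection limit: Col6a6 with 0.839 in 7 d replicate 2 (0.31 against 0.05 TPM), Col6a4 with 1.0 in 7 d replicate 4 (3 counts) and Col19a1 with 1.0 in 7 d replicate 1 (4 counts). Col6a4 and Col19a1 had counts in only 1 of the 6 mice, which fixes their ratio at 1.0. None of the 7 chains was called at 7 d. Causes were not tested.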

How the results depend on the processing

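Counts of called chains stayed within 1.5 times of those reported under the alternatives for the F-test (26 to 28, 27 reported), 7 d (9 to 14, 11 reported), 14 d (13 to 17, 13 reported) and 21 d (19 to 21, 19 reported), leave-outs aside. Calls over all genes varied more under these settings. They were 1198 to 2496 for the F-test (1243 reported) and 142 to 596 at 7 d (323 reported). At 14 d they were 216 to 592 (222 reported) and at 21 d 260 to 463 (268 reported). At 6 h 1 chain, Col5a3, was called without a count filter, by DESeq2 and with campaign as a covariate. At 12 h 1 (Col6a3) was called when the fit held just the mice of the times compared, and at 24 h 1 (Col11a2) by DESeq2. At 3 d DESeq2 called 4, the campaign covariate or leaving out the left-foot mice gave 1 (Col12a1 lost), and the fit of the mice of these times gave 0. Over all genes these 3 d settings called 153, 88, 103 and 82 in that order, with 76 reported. For 14 d against 3 d the fit of these mice gave 4 in place of 9, and over all genes 19 in place of 42. With a mouse left out in turn, counts ranged from 24 to 28 (F-test), 0 to 0 at 3 h, 12 h and 24 h, 0 to 1 at 6 h, 0 to 2 at 3 d, 3 to 14 at 7 d, 11 to 14 at 14 d, 15 to 20 at 21 d and 3 to 10 for 14 d against 3 d. No called log2 fold change changed sign, which leaves the values without a call aside, and the causes were not tested. In expected counts in place of TPM the collagen share was 1.14% at 0 h and 5.87% at 21 d. No paired analysis was possible because the labels number no replicates. Some title dates recur at 2 times, and campaign, which groups these dates, was fitted as a covariate. The 6 untested chains had too few counts for the filter.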
